A study of Rattus norvegicus with 16 samples.

Results

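The 41 genes described here encode Wnt ligands, their Frizzled receptors and LRP co-receptors, the secreted proteins that block them and the first cytoplasmic transducers of the signal, measured in hippocampus and cortex of aged rats fed curcumin chow or control chow. A gene was a member if a transcript cluster of the array (1 summarised value per gene model) carried exactly 1 gene symbol that began with Wnt, Fzd, Dkk, Sfrp, Dvl or Axin followed by a digit, or if that symbol was Frzb, Lrp5, Lrp6, Wif1 or Ctnnb1. Of 27342 clusters, 41 met the rule, each for a different gene. They were 17 Wnt ligands, 7 Frizzled receptors, 2 co-receptors, 10 secreted inhibitors and 5 transducers. RefSeq lists 47 rat genes with such names, and Dvl2, Fzd3, Fzd7, Fzd10, Wnt7a and Wnt11 are not analysed here. The rule uses gene names and no measured value.

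Male Sprague-Dawley rats aged 15 months received chow with curcumin, the yellow polyphenol of turmeric, or standard chow, for 12 weeks or 6 weeks, and hippocampus and cortex were profiled on Affymetrix arrays. The 8 groups of 2 arrays each were therefore hippocampus and cortex from curcumin-treated rats after 12 weeks, from control rats after 12 weeks, from curcumin-treated rats after 6 weeks and from control rats after 6 weeks. By the paper's methods, hippocampus and cortex were dissected from the same 6 rats of each diet and duration. Each array held a pool of tissue from 3 of them. The main fit took the arrays of the 2 tissues as independent. The labels call the 2 arrays of a group biological replicates, whereas the design text speaks of duplicate arrays per RNA sample. The spread on which each p-value rests may therefore be technical. The rats of the 12-week groups were also older when killed, and age, cohort and duration cannot be told apart.

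The Wnt pathway is among the oldest known systems by which cells signal to their neighbours. Secreted Wnt proteins bind a Frizzled receptor and, in the canonical branch, the co-receptors Lrp5 or Lrp6. Dishevelled (Dvl) proteins then hold back the Axin complex that would otherwise mark beta-catenin (Ctnnb1) for destruction, and beta-catenin joins TCF/LEF factors on target genes. In the adult hippocampus the pathway is known for its part in the birth of dentate granule neurons and in the upkeep of synapses.

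Values are log2 signals normalised by the authors, and the median of all clusters lay between 6.35 and 6.44 on the 16 arrays. The dentate granule cell marker Prox1 had 7.31 to 8.07 on hippocampal arrays and 5.71 to 6.81 on cortical arrays. C1ql2 had 7.86 to 8.77 on hippocampal arrays and 5.93 to 6.53 on cortical arrays, so the tissues did not overlap for these 2 genes. Of the 3 measured markers of these cells, these 2 were called higher in hippocampus, and 1 had a negative difference that did not pass. All 4 measured markers of cortical projection neurons (Fezf2, Neurod6, Slc17a7 and Rasgrf2) were called higher in hippocampus. Some arrays carried markers of other regions. The mean of 7 olfactory bulb markers was 8.10 on replicate 2 of the 6-week control cortex and 6.22 to 7.05 on the other 15 arrays. The mean of 7 striatal markers was 9.13 on replicate 1 of the same group and 6.73 to 8.52 elsewhere. Choroid plexus markers averaged 7.75 on replicate 2 of the 6-week curcumin hippocampus and 8.25 on replicate 2 of its control, and 5.84 to 6.41 elsewhere. These were pieces of tissue, in which fewer cells of a type and less RNA per cell cannot be told apart.

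To place the genes before their values, the 250 bases upstream of a transcription start are shown for 4 members, from RefSeq on the GRCr8 assembly. Capitals mark the letters CTTTGAT or CTTTGAA, the core bound by TCF/LEF factors, searched on both strands. Axin2, a feedback inhibitor and known beta-catenin target, is shown because it held 2 of these matches (chr10:94398535-94398784, plus strand, inside the RefSeq gene, which spans 94393379 to 94426579). Wnt2 (chr4:47340285-47340534, minus strand) and Wnt16 (chr4:51786478-51786727, plus strand) are ligands that differed between the tissues. Dvl1 (chr5:171738973-171739222, plus strand) is the one member called for curcumin. Its window also lies inside the RefSeq gene, which spans 171738911 to 171750967.
Axin2: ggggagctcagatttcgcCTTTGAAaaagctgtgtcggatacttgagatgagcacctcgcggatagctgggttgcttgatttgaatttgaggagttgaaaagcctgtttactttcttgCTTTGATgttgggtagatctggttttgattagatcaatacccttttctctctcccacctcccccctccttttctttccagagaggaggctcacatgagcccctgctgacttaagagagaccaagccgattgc
Wnt2: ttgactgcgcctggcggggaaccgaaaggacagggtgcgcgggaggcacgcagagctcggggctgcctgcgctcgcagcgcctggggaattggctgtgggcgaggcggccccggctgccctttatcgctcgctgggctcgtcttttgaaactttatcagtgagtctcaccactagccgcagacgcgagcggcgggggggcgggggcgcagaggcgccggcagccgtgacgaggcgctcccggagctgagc
Wnt16: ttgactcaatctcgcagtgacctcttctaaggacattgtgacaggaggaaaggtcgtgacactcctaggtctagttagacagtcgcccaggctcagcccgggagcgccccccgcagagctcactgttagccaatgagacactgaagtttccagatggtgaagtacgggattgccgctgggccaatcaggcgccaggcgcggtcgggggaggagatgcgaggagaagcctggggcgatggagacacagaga
Dvl1: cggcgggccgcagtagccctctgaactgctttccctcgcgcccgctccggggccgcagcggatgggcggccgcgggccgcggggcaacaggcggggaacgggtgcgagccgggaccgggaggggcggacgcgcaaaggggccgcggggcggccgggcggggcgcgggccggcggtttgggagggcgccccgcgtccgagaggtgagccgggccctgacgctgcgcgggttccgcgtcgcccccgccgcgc
The 2 matches in Axin2 began 232 and 132 bases before the start, whereas none of the letters were found in these windows of Wnt2, Wnt16 or Dvl1. Axin2 was chosen for its matches, so this contrast follows from the choice. Of the 28 members with a promoter in the table, 3 (10.7%) held a match, namely Axin2, Dkk1 and Wnt8a, against 7.6% of all 27457 promoters of the same length. A match is a run of letters and not a measured binding site. Base composition differed more visibly. The median G+C content was 66.4% over the members and 52.0% over all promoters, and it was 82.4% in Dvl1, 70.4% in Wnt2, 58.8% in Wnt16 and 47.6% in Axin2.

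The members varied somewhat more than the clusters as a whole. The mean over 16 arrays was under the median of all clusters for 20 members, and 3 of them, the ligand Wnt8a and the inhibitors Dkk1 and Dkk2, were under the 25th percentile. The range over 16 arrays had a median of 0.57 on the log2 scale for the members and 0.44 for all clusters. It exceeded 1 for 6 members, namely Wnt7b (1.66), Frzb (1.62), Sfrp2 (1.34), Sfrp1 (1.26), Wnt2 (1.17) and Dkk3 (1.17). In the plot of all members by array these are the rows of strong colour. For the ligand Wnt16 only 8.5% of the variance over the arrays lay between replicates of a group, whereas for the ligand Wnt8b this share was 81.9%, and the median over members was 40.3%. The within-group SD was 0.126 at the median member and 0.099 at the median cluster.

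**Figure D1:**
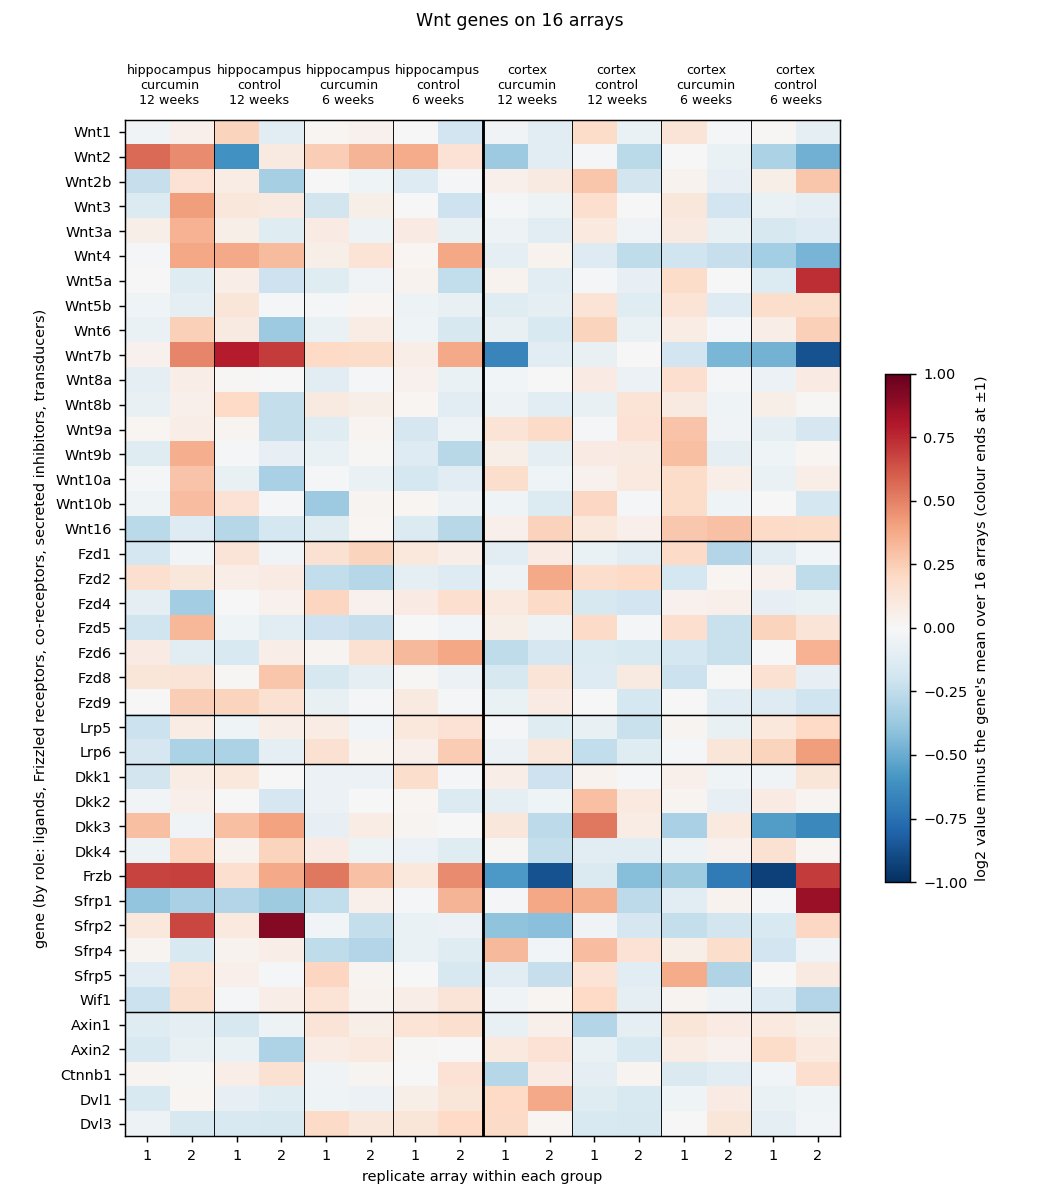
Each row is 1 of the 41 genes and each column 1 of the 16 arrays, with colour for the log2 value minus the mean of that gene, and black lines between groups and between roles. Wnt7b, Frzb, Wnt4 and Wnt2 are mostly red in the hippocampal columns and blue in the cortical ones, and the 6-week control cortex replicate 2 stands out in Frzb, Sfrp1 and Wnt5a.

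Hippocampus was set against cortex, over both diets and durations, to show which members mark a tissue. The test was limma's moderated test with Benjamini-Hochberg adjustment over all clusters. Wnt7b, Wnt4, Wnt2 and Frzb were called higher in hippocampus and Wnt16 lower, so that 4 of the 5 were ligands. This was 5 of 41 members, where 9.67% of all clusters were called. Of the ligands, 4 of 17 passed, of the secreted inhibitors 1 of 10, and no Frizzled receptor, co-receptor or transducer did. At an unadjusted p under 0.05 there were 13 members, against 21.3% of all clusters, and the fold rule of the methods (at least 1.5-fold or at most 0.66-fold, with no test) took Wnt7b and Frzb, or 2 members, against 1.21% of all clusters.

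Wnt7b, a ligand known for its part in dendrite growth of hippocampal neurons, separated the tissues without overlap. Its lowest, median and highest log2 values were 7.70, 7.94 and 8.44 on the 8 hippocampal arrays and 6.78, 7.33 and 7.65 on the 8 cortical arrays. Every hippocampal array was above every cortical one, which held for 1.61% of all clusters in either direction and for only Wnt7b and Wnt16 among the members. The difference was 0.71 (SE 0.10, adjusted p = 0.00105, limma), or 1.64-fold.

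Wnt16, a ligand best known from bone and joints, was the one member called lower in hippocampus. It had 5.82, 5.95 and 6.13 as lowest, median and highest value in hippocampus and 6.16, 6.29 and 6.40 in cortex. The gap between the tissues was narrow, but the arrays agreed closely within each group, and the difference was -0.34 (SE 0.041, adjusted p = 0.000334, limma). This was the smallest adjusted p of any member in this comparison.

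Wnt4, a ligand of many developing organs, had 6.84, 7.08 and 7.24 in hippocampus and 6.39, 6.63 and 6.89 in cortex, with 2 hippocampal arrays below the highest cortical one. The difference was 0.42 (SE 0.067, adjusted p = 0.00216, limma). Wnt2, a ligand that can act through beta-catenin, had 6.65, 7.55 and 7.82 in hippocampus and 6.78, 7.07 and 7.25 in cortex. The low hippocampal end came from replicate 1 of the 12-week control group, and the difference was 0.41 (SE 0.092, adjusted p = 0.0169, limma). With the 8 control arrays alone it was 0.27 (adjusted p = 0.366), and the call was lost.

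Frzb, a secreted Frizzled-related protein that binds Wnts outside the cell, had the largest difference of all members. Its values were 6.96, 7.28 and 7.54 in hippocampus and 5.92, 6.35 and 7.55 in cortex. The cortical value of 7.55 belonged to the array with olfactory bulb markers, and the other 7 cortical arrays did not pass 6.71. The difference was 0.83 (SE 0.19, adjusted p = 0.0179, limma), or 1.78-fold, and without that array it was 1.03 (adjusted p = 6.11e-05). In controls alone, where that array was 1 of 4 cortical arrays, it was 0.48 (adjusted p = 0.458). The receptor Fzd6 fell just outside the threshold, with 5.46, 5.69 and 6.00 in hippocampus and 5.36, 5.46 and 5.96 in cortex (difference 0.19, SE 0.055, adjusted p = 0.0519, limma); it was picked out after its values were seen.

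**Figure D2:**
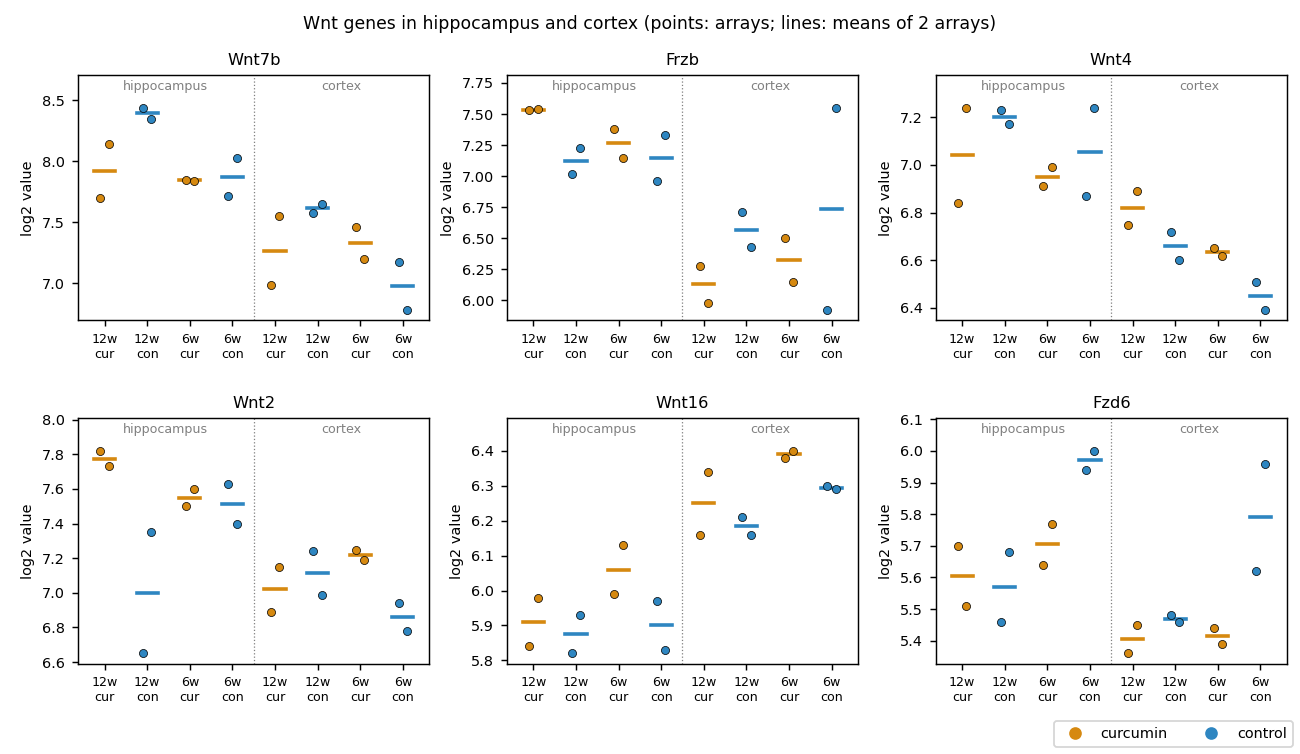
Points are log2 values of single arrays and lines the means of 2 arrays, for the 5 genes called between the tissues and for Fzd6, with hippocampus left of the dotted line and curcumin (cur) left of control (con). Wnt7b and Wnt16 do not overlap between the tissues, and 1 cortical array reaches 7.55 for Frzb.

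The same array stood apart in other members. The Wnt antagonist Sfrp1 had 6.76 there and 5.50 to 6.28 on the other 15 arrays, and the non-canonical ligand Wnt5a had 6.62 there and 5.64 to 6.07 elsewhere. Wnt7b had its lowest value of all arrays there, 6.78. Olfactory bulb markers on that array included Pbx3 at 9.0, Trh at 8.21 and Calb2 at 8.83. The mean of 5 thalamus and habenula markers, Calb2 among them, was 7.33 on that array and 6.15 to 6.62 elsewhere. Meningeal markers averaged 7.34 there and 7.31 on replicate 1 of the 12-week control cortex. The part of all these markers in the values of these members was not tested. Markers of other cell types also moved between the tissues. Of 10 measured meningeal markers 4 were called lower in hippocampus, with means of 6.25 to 6.64 on hippocampal arrays and 6.41 to 7.34 on cortical arrays, all 7 striatal and all 7 olfactory bulb markers had negative differences (medians -0.87 and -0.31, with 1 and 2 called), and of 8 astrocyte markers 5 were called higher, with means of 10.06 to 10.24 on hippocampal arrays and 9.63 to 10.11 on cortical arrays. Their part in the 5 tissue calls was not tested.

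**Figure D3:**
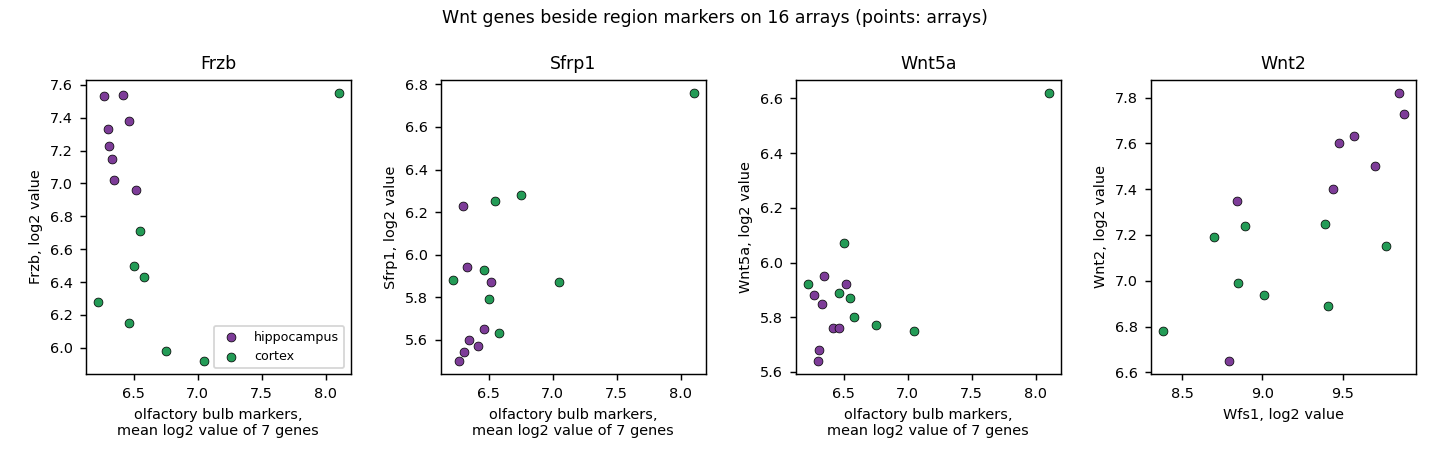
Points are the 16 arrays (purple hippocampus, green cortex), with the log2 value of Frzb, Sfrp1 and Wnt5a against the mean log2 value of 7 olfactory bulb markers, and of Wnt2 against the log2 value of Wfs1. The array with a marker mean of 8.10 has 7.55 for Frzb, 6.76 for Sfrp1 and 6.62 for Wnt5a, and the 2 hippocampal arrays with the lowest Wfs1 have the lowest hippocampal Wnt2.

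Curcumin-treated rats were compared with control rats of the same tissue and duration, to find members that followed the diet. A single member passed in 1 of the 4 comparisons, which was Dvl1 in cortex after 12 weeks. By limma's adjusted p, 1 of 41 members was called there, where 3.24% of all clusters were. In the hippocampus no member was called after 12 weeks (0.00366% of clusters called) or after 6 weeks (0% called), and none was called in cortex after 6 weeks (0.106% called). At an unadjusted p under 0.05 the counts were 6 of 41 in cortex after 12 weeks (15.1% of clusters), 5 in hippocampus after 12 weeks (5.11%), 4 in cortex after 6 weeks (12.0%) and 1 in hippocampus after 6 weeks (2.03%). Curcumin and control arrays did not overlap for 18, 10, 21 and 19 members in the same order, against 44.3%, 27.4%, 36.3% and 35.0% of all clusters. The fold rule took 0, 1, 0 and 0 members in that order, against 0.827%, 0.230%, 1.25% and 0.121% of all clusters, and the 1 was Wnt2.

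**Figure D4:**
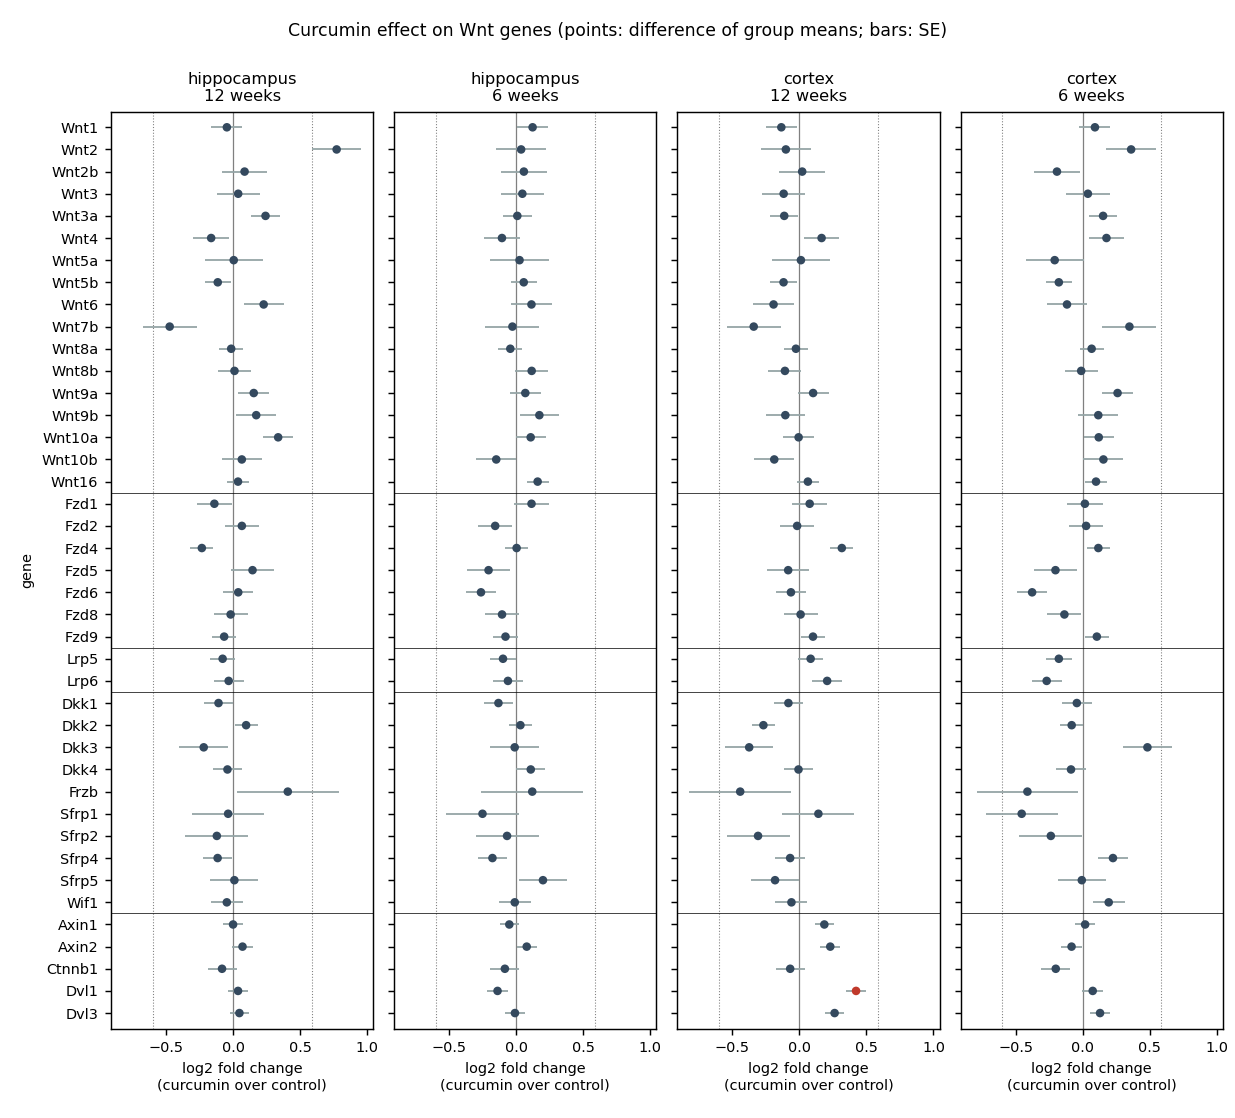
Points give the log2 fold change of curcumin over control for each of the 41 genes, bars its SE, dotted lines 1.5-fold higher and 0.66-fold, and the red point the one called gene. Dvl1 in cortex after 12 weeks is at 0.42, and Wnt2 in hippocampus after 12 weeks is the one point past a dotted line.

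Dvl1, a dishevelled protein that relays the signal from Frizzled to the Axin complex, rose in cortex after 12 weeks of curcumin. It had 7.61 and 7.79 in curcumin-treated rats and 7.29 and 7.26 in control rats, so that both curcumin arrays were above both controls. The curcumin values were also above those of the other 14 arrays, which reached 7.53. The difference was 0.42 (SE 0.076, adjusted p = 0.0157, limma), or 1.34-fold. The call was lost without curcumin replicate 2 (0.34, adjusted p = 0.107), without control replicate 1 (0.44, 0.110) or without control replicate 2 (0.41, 0.0915). All 8 measured astrocyte markers had negative differences in that comparison and 1, Mlc1, was called lower. Their list means were 9.63 and 9.9 in curcumin-treated cortex and at least 9.98 on both control arrays. All 7 striatal and all 10 oligodendrocyte markers had negative differences too (medians -0.51 and -0.14), and none of them passed. Of 4 projection neuron markers 2 had positive and 2 negative differences, and none passed. The part of all these markers in the Dvl1 result was not tested.

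Other transducers had differences of the same sign in that comparison but did not pass. Dvl3, the second dishevelled gene measured, had 7.52 and 7.35 in curcumin-treated and 7.18 and 7.17 in control cortex (0.26, adjusted p = 0.0826). Axin1, the scaffold of the destruction complex, had 6.97 and 7.09 in curcumin-treated and 6.75 and 6.94 in control cortex (0.19, adjusted p = 0.231). Axin2 had 7.15 and 7.20 in curcumin-treated and 6.99 and 6.90 in control cortex (0.23, adjusted p = 0.141). Groups did not overlap for any of the 3 genes, as for 44.3% of all clusters. Dvl3 and Axin1 were picked out after their values were seen. Ctnnb1 itself had 8.96 and 9.33 in curcumin-treated and 9.15 and 9.27 in control cortex, which overlapped (-0.07, adjusted p = 0.884).

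At the receptor level, Fzd4, the Frizzled receptor known for retinal vessels, had 6.96 and 7.05 in curcumin-treated and 6.70 and 6.67 in control cortex after 12 weeks (0.32, SE 0.086, adjusted p = 0.0772), again picked out after its values were seen. The co-receptor Lrp6 had 8.22 and 8.39 in curcumin-treated and 8.03 and 8.16 in control cortex (0.21, adjusted p = 0.446). Among the ligands 12 of 17 differences were negative, with a median of -0.11 against 0.00 for all clusters, and 0 passed. Of the secreted inhibitors 9 of 10 were negative, with a median of -0.13. Frzb, the largest of these, had 6.28 and 5.98 in curcumin-treated and 6.71 and 6.43 in control cortex (-0.44, SE 0.38, adjusted p = 0.715). Such shares carry no test, since replicate arrays of a group also differed in many members at once.

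In hippocampus after 12 weeks, Wnt2 had the largest curcumin difference of any member in the series. It had 7.82 and 7.73 in curcumin-treated rats and 6.65 and 7.35 in control rats, without overlap. The difference was 0.77 (SE 0.18, 95% interval 0.37 to 1.18), or 1.71-fold, and its adjusted p of 0.629 did not pass. The value rested on the spread of the controls, being 0.42 without control replicate 1 and 1.12 without control replicate 2. Wfs1, a marker of dorsal hippocampal CA1, also had higher values there, at 9.85 and 9.88 in curcumin-treated rats and 8.79 and 8.84 in control rats. Its difference of 1.06 did not pass. On the 6-week hippocampal arrays Wfs1 had 9.44 to 9.70. It was the only one of 4 such markers measured. Of 5 ventral hippocampus markers 4 had negative differences (median -0.32), with list means of 6.85 and 7.3 in curcumin-treated and 7.64 and 7.31 in control rats, and of 3 dentate granule cell markers 2 had positive ones (median 0.41), with list means of 8.19 and 8.42 in curcumin-treated and 8.19 and 7.91 in control rats. None of the ventral or dentate markers passed. In cortex after 12 weeks Wfs1 had higher values as well, at 9.41 and 9.77 in curcumin-treated and 8.89 and 8.85 in control rats. That difference of 0.71 did not pass either. Wnt2 overlapped in that cortical comparison, with 6.89 and 7.15 in curcumin-treated and 7.24 and 6.99 in control rats. The part of all these markers in the hippocampal Wnt2 result was not tested.

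Wnt7b had 7.70 and 8.14 in curcumin-treated and 8.44 and 8.35 in control hippocampus after 12 weeks (-0.47, SE 0.20, adjusted p = 0.956). The 2 control arrays were the highest of all 16. Axin2 (0.07), Ctnnb1 (-0.08) and Lrp6 (-0.03) differed by less than 0.1 in that comparison, each with an adjusted p of 0.999. Fzd4 lay lower in hippocampus, at 6.77 and 6.51 in curcumin-treated and 6.86 and 6.90 in control rats (-0.23, adjusted p = 0.901).

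After 6 weeks, the largest differences in cortex were those of 2 secreted proteins. Dkk3, a Dickkopf-related glycoprotein abundant in neurons, had 9.34 and 9.76 in curcumin-treated and 9.11 and 9.02 in control cortex (0.48, SE 0.18, adjusted p = 0.307). The mean of the 4 projection neuron markers was 8.96 and 9.09 in curcumin-treated and 8.35 and 8.20 in control cortex, with Slc17a7 called higher. All 10 oligodendrocyte markers had negative differences there (median -0.81), with list means of 8.11 and 8.99 in curcumin-treated and 9.56 and 9.15 in control cortex, as did all 8 microglia markers (median -0.27) and all 7 olfactory bulb markers (median -1.10), of which none passed. All 7 striatal markers had negative differences too (median -0.51). Their list means were 6.95 and 8.09 in curcumin-treated and 9.13 and 7.06 in control cortex. Of 8 astrocyte markers 7 had negative differences and 1 a positive one (median -0.14). None of the striatal or astrocyte markers passed. The part of all these markers in the members' values after 6 weeks was not tested. Sfrp1 had 5.79 and 5.93 in curcumin-treated and 5.87 and 6.76 in control cortex (-0.45, SE 0.27, adjusted p = 0.567). It stood at -0.01 without the control array of high olfactory bulb markers and at -0.90 (adjusted p = 0.0906) when that array was the only control left. With it as the only control, Frzb (-1.22), Fzd6 (-0.54) and Wnt5a (-0.65) passed, each of which had its highest cortical value on that array, while without it none of the 41 passed. Wnt2 had 7.25 and 7.19 in curcumin-treated and 6.94 and 6.78 in control cortex (0.36, adjusted p = 0.480), and Lrp6 had 8.26 and 8.40 in curcumin-treated and 8.50 and 8.70 in control cortex (-0.27, adjusted p = 0.361). Ctnnb1 (-0.20, adjusted p = 0.515) and Axin2 (-0.08, adjusted p = 0.775) did not pass either.

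In hippocampus after 6 weeks, Fzd6 had 5.64 and 5.77 in curcumin-treated and 5.94 and 6.00 in control rats (-0.26, SE 0.11), and Sfrp1 had 5.65 and 5.94 in curcumin-treated and 5.87 and 6.23 in control rats (-0.25, SE 0.27). These were the largest differences there, and both had an adjusted p of 1.0. Wnt2 (0.04), Axin2 (0.08), Ctnnb1 (-0.09) and Lrp6 (-0.06) were smaller. Of 13 choroid plexus markers 12 had negative differences in that comparison (median -0.45), and none passed. Their list means were 5.84 and 7.75 in curcumin-treated and 6.41 and 8.25 in control rats. The part of these markers in the members' values was not tested. All 4 curcumin comparisons use control arrays that also enter the comparisons of duration.

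Control rats at 12 weeks were set against control rats at 6 weeks to follow the members over time on standard chow. In cortex Dkk3 was higher at 12 weeks and Lrp6 and Axin1 were lower, and in hippocampus Dvl3 was lower. This was 3 of 41 members in cortex, where 8.85% of all clusters were called, and 1 of 41 in hippocampus, where 4.27% were. At an unadjusted p under 0.05 there were 10 members in cortex (23.4% of clusters) and 9 in hippocampus (17.5%). Arrays of the durations did not overlap for 23 members in cortex (54.9% of clusters) and 22 in hippocampus (47.3%). The fold rule took Dkk3 and Wnt7b in cortex, 2 members against 3.08% of clusters, and 0 in hippocampus against 1.33%.

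Dkk3 had 10.19 and 9.74 at 12 weeks and 9.11 and 9.02 at 6 weeks in control cortex, a difference of 0.90 (SE 0.18, adjusted p = 0.0134, limma) or 1.86-fold. The 6-week values were the lowest of all 16 arrays. Lrp6, the co-receptor that Wnt and Frizzled join, had 8.03 and 8.16 at 12 weeks and 8.50 and 8.70 at 6 weeks (-0.51, SE 0.11, adjusted p = 0.0191, limma). Axin1 had 6.75 and 6.94 at 12 weeks and 7.14 and 7.10 at 6 weeks (-0.28, SE 0.072, adjusted p = 0.0365, limma).

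Each of these 3 calls was lost in some fits that left out 1 array. Such fits had 1 array in a group and a larger SE. A lost call therefore does not show that the difference rested on that array. Without the 6-week control with olfactory bulb markers the differences were 0.85 for Dkk3 (adjusted p = 0.0899), -0.40 for Lrp6 (0.143) and -0.30 for Axin1 (0.129), and no member was called. Without 12-week control replicate 1 none was called either, with adjusted p of 0.123, 0.148 and 0.277 for Dkk3, Lrp6 and Axin1. Lrp6 was also lost without 12-week replicate 2 (0.0510) and Axin1 without 6-week replicate 1 (0.111). Region markers moved in the same comparison. Of 7 olfactory bulb markers 2 were lower at 12 weeks, Pbx3 (-1.64, adjusted p = 0.0113) and Dlx5 (-1.08, 0.00633). Of 4 projection neuron markers 3 were higher, Neurod6 (1.14, 0.00672), Fezf2 (0.80, 0.0226) and Slc17a7, and their list mean was 9.14 and 8.89 at 12 weeks and 8.35 and 8.20 at 6 weeks. All 10 oligodendrocyte markers had negative differences (median -0.50), and none passed. Their part in the Dkk3, Lrp6 and Axin1 results was not tested.

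In hippocampus Dvl3 had 7.18 and 7.17 at 12 weeks and 7.45 and 7.53 at 6 weeks in control rats (-0.31, SE 0.073, adjusted p = 0.0392, limma), and leaving out any 1 of these 4 arrays lost the call (adjusted p 0.101 to 0.230). All 13 measured choroid plexus markers had negative differences in that comparison (median -1.13) but none passed, with list means of 5.91 and 5.95 at 12 weeks and 6.41 and 8.25 at 6 weeks, and Ttr among them at 6.42 and 6.85 at 12 weeks and 9.59 and 12.19 at 6 weeks. Their part in the Dvl3 result was not tested. The genes called in cortex had hippocampal values of 9.97 and 10.07 at 12 weeks and 9.69 and 9.66 at 6 weeks for Dkk3 (0.35, adjusted p = 0.369), 7.96 and 8.18 at 12 weeks and 8.33 and 8.53 at 6 weeks for Lrp6 (-0.36, 0.104), and 6.88 and 6.99 at 12 weeks and 7.18 and 7.20 at 6 weeks for Axin1 (-0.26, 0.0737). Whether duration acted differently in the tissues was not tested. All 5 transducers had a negative difference in cortex and 4 of 5 in hippocampus, with medians of -0.10 and -0.19, where all clusters had medians of -0.01 and 0.01. Axin2 was near the threshold in cortex, at 6.99 and 6.90 at 12 weeks and 7.24 and 7.15 at 6 weeks (-0.25, adjusted p = 0.0608).

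**Figure D5:**
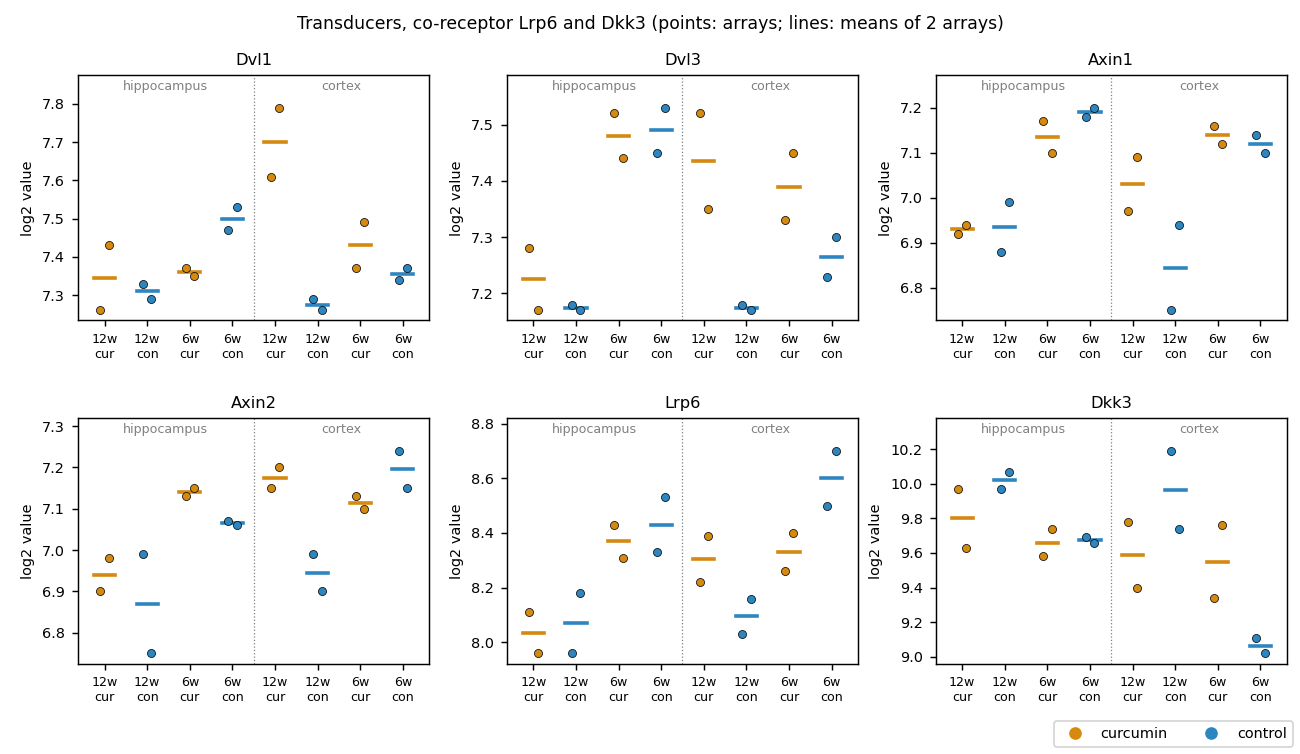
Points are log2 values of single arrays and lines the means of 2 arrays, for the transducers Dvl1, Dvl3, Axin1 and Axin2, the co-receptor Lrp6 and Dkk3, with 12 weeks left of 6 weeks and curcumin (cur) left of control (con). Dvl1 is highest in cortex after 12 weeks of curcumin, and the 2 lowest Dkk3 values, 9.11 and 9.02, are those of the 6-week control cortex.

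Whether a curcumin effect differed between durations or tissues was tested as an interaction, and no member passed. This was 0 of 41 for 12 minus 6 weeks in hippocampus (0% of clusters called) and in cortex (1.47%), and 0 of 41 for hippocampus minus cortex at 6 weeks (0%) and at 12 weeks (0.190%). At an unadjusted p under 0.05 the counts were 1, 5, 1 and 5 in that order, against 3.43%, 14.7%, 5.48% and 10.6% of clusters. By the fold rule they were 1 (Wnt2), 3 (Dkk3, Wnt7b and Sfrp1), 0 and 2 (Wnt2 and Frzb), against 0.523%, 3.75%, 1.29% and 1.87%. The Dvl1 effect in cortex after 12 weeks was thus not shown to differ from its effect in hippocampus (hippocampus minus cortex -0.39, SE 0.11, adjusted p = 0.187) or at 6 weeks (12 minus 6 weeks 0.35, SE 0.11, adjusted p = 0.143). For Wnt2 the hippocampal minus the cortical effect at 12 weeks was 0.87 (SE 0.26, adjusted p = 0.214). Fzd4 came closest, at -0.55 (SE 0.12, adjusted p = 0.104), with the 2 tissues in opposite directions as given above. The cortical effect on Dkk3 at 12 minus 6 weeks was -0.86 (SE 0.26, adjusted p = 0.128).

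Other genes of the pathway were read from a list of 67, of which 55 were measured. In cortex after 12 weeks of curcumin 3 of 55 were called, beside 3.24% of all clusters, and none in the other 3 curcumin comparisons by limma's adjusted p. At an unadjusted p under 0.05 there were 12 of 55 in cortex after 12 weeks (15.1% of clusters) and 14 after 6 weeks (12.0%). In hippocampus there were 2 after 12 weeks (5.11%) and 0 after 6 weeks (2.03%). Gsk3a, a kinase that phosphorylates beta-catenin in the destruction complex, had 9.54 and 9.33 in curcumin-treated and 8.88 and 8.95 in control cortex (0.52, SE 0.10, adjusted p = 0.0194, limma). Celsr2, a planar polarity cadherin, had 8.81 on both curcumin arrays and 8.30 and 8.46 on the controls (0.43, SE 0.10, adjusted p = 0.0436). Csnk1a1, the casein kinase that primes beta-catenin, had 10.07 and 9.95 in curcumin-treated and 10.40 and 10.39 in control cortex (-0.39, SE 0.067, adjusted p = 0.0130). Like Dvl1, each of the 3 lost its call when certain single arrays were left out, with adjusted p up to 0.313 for Celsr2, 0.162 for Gsk3a and 0.118 for Csnk1a1, and when the 8 cortical arrays were fitted alone (0.165, 0.108 and 0.0904).

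Between the tissues 13 of these 55 genes were called, 10 higher and 3 lower in hippocampus, where 9.67% of all clusters were called. Rspo2, an R-spondin that amplifies Wnt signals at the receptor, had 8.90 to 9.33 in hippocampus and 7.68 to 8.54 in cortex (1.05, SE 0.056, adjusted p = 2.03e-06). The corepressor Tle1 had 7.46 to 7.96 in hippocampus and 6.68 to 7.34 in cortex (0.74), and the glypican Gpc4 had 7.55 to 8.09 in hippocampus and 6.92 to 7.56 in cortex (0.65). Gpc3, Porcn, Daam1, Vangl2, Celsr2, Prickle2 and Csnk1a1 were also higher, by 0.15 to 0.36. Dact2, which binds dishevelled, was lower (-0.57), as were Csnk1e and Nkd2 by less. Of the 16 fits that each left out 1 array, Celsr2 and Nkd2 lost the call in 13, Gpc3 in 12 and Daam1 in 7, and the other 9 genes kept it in all. With the 8 control arrays alone 8 of the 13 lost the call, Csnk1a1 (0.07, adjusted p = 0.587), Csnk1e (0.227), Vangl2 (0.106), Prickle2 (0.0777), Dact2 (0.0629), Daam1, Gpc3 and Nkd2, and Rspo2, Tle1, Gpc4, Porcn and Celsr2 kept it.

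Over time on control chow, 7 of the 55 were called in cortex and 2 in hippocampus, beside 8.85% and 4.27% of all clusters. Gsk3b, the second such kinase, was lower at 12 weeks in both tissues, with 9.87 and 9.98 at 12 weeks and 10.36 and 10.23 at 6 weeks in cortex (-0.37, adjusted p = 0.0119) and 9.91 and 9.86 at 12 weeks and 10.25 and 10.24 at 6 weeks in hippocampus (-0.36, adjusted p = 0.0225). Tnik was lower in hippocampus (-0.32), and Lef1 (-0.60), Tle1 (-0.51) and Daam1 (-0.44) were lower in cortex, where Rspo2 (0.66), Pygo2 (0.46) and Prickle2 (0.25) were higher. Each of these 9 calls was lost in at least 1 fit without a single array. They came with the shifts of region markers in cortex and of choroid plexus markers in hippocampus given above, whose part was not tested.

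Known targets of beta-catenin and TCF/LEF were read from a list of 17 genes, of which 13 were measured. None was called by limma's adjusted p in any of the 4 curcumin comparisons. At an unadjusted p under 0.05 there was 1 of 13 in hippocampus after 12 weeks (5.11% of clusters) and 0 after 6 weeks (2.03%). In cortex there was 1 after 12 weeks (15.1%), and there were 3 after 6 weeks (12.0%). Those 3 were Neurod1 (0.87, adjusted p = 0.0758, limma), Ccnd1 (-0.335, 0.154) and Lgr5 (-0.99, 0.384). The list's medians were 0.05 and -0.03 in hippocampus after 12 and 6 weeks and 0.06 and -0.08 in cortex after 12 and 6 weeks, and those of all clusters 0.00 throughout. Neurod1 (1.05) and Prox1 (1.57) were higher in hippocampus than in cortex. Both are made in dentate granule neurons, and Prox1 is also on the marker list of those cells. Lef1 (-0.60) and Prox1 (-0.83) were lower in control cortex at 12 weeks than at 6 weeks, where Lef1 also stands on the pathway list and on the marker list of thalamus and habenula.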

How the data were processed

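RNA from pools of hippocampus or cortex was hybridised to Affymetrix arrays, named Rat Exon 1.0 ST in the methods. The deposited values are log2 signals that the authors summarised per transcript cluster with RMA in Expression Console, with no version given in the sources used. RMA sets all arrays to one distribution, so levels are relative. The members' means over 16 arrays were nevertheless ranked among all clusters, and these ranks carry that limit. All 27342 clusters on 16 arrays were kept, with 0 missing values. Symbols came from the platform annotation, which gave 1 symbol to 15097 clusters, several to 323 and none to 11922. All 41 members matched RefSeq by gene ID.

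Group means were fitted over all 16 arrays with limma 3.58.1 in R 4.3.3, after a check of the script on simulated data. The 8 residual degrees of freedom, pooled over groups of 2 arrays, limit the precision, and an adjusted p under 0.05 was called. Differences and their SE are on the log2 scale. The methods' rule of 1.5-fold or 0.66-fold on group means, without a test, was an alternative, with filtering, normalisation, array weights, a replicate block and each array left out. Named in full were members called in any comparison, the 2 with the largest fold change in each curcumin comparison, Wnt2, Ctnnb1, Axin2 and Lrp6. The rule for members uses names only, but the members, gene lists and markers were chosen with earlier results of these data known. Figures were drawn with matplotlib 3.10.9.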

Additional observations from a re-analysis of the deposited data

Results flagged for a closer look

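Rspo2 was the one gene of the wider pathway list whose curcumin effect in cortex differed between the durations by a test of that difference. This was 1 of 55 measured genes, where 1.47% of all clusters were called. No gene of the list was called in the other interactions. Rspo2 had 8.05 and 7.80 in curcumin-treated and 8.54 and 8.23 in control cortex after 12 weeks. After 6 weeks it had 8.11 and 8.23 in curcumin-treated and 7.77 and 7.68 in control cortex. The difference of the effects, 12 minus 6 weeks, was -0.902 (SE 0.16, adjusted p = 0.0273, limma, 2 arrays in each of 4 groups). It stood at -0.75 without 12-week control replicate 1 (adjusted p = 0.124), at -0.78 without 12-week curcumin replicate 2 (0.0948), at -0.855 without 6-week control replicate 2 (0.104) and at -0.84 without 6-week curcumin replicate 2 (0.0738), where the call was lost. It was also lost when the 8 cortical arrays were fitted alone (adjusted p = 0.177). The projection neuron genes Fezf2 (-1.23), Neurod6 (-1.32) and Slc17a7 (-0.64) passed the same test in the same direction, and their part in the Rspo2 result was not tested.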

How the results depend on the processing

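By the methods' fold rule without a test, the members past it were 1 for curcumin in hippocampus at 12 weeks, 0 in cortex at 12 weeks, 2 between the tissues, 0 for duration in hippocampus, 1 and 3 for the curcumin effect at 12 minus 6 weeks in hippocampus and cortex, and 2 for hippocampus minus cortex at 12 weeks. Fitting the 8 arrays of a tissue alone gave 0 calls for curcumin in cortex at 12 weeks (Dvl1 adjusted p = 0.0967) and 0 for duration in either tissue. Controls alone gave 3 calls between the tissues (Wnt7b, Wnt4 and Wnt16). For duration in hippocampus the count was 0 without dim clusters, 3 after quantile normalisation (Dvl3, Axin1 and Lrp6), and 0 with trend and robust variance. For duration in cortex Axin1 was lost with trend and robust variance (adjusted p = 0.0901, count 2), and Axin2 was gained with array weights (0.0369, count 4). Leaving out 1 array at a time gave 0 to 3 calls for curcumin in cortex at 6 weeks, 0 to 1 in cortex at 12 weeks, 4 to 8 between the tissues, 0 to 2 and 0 to 5 for duration in hippocampus and cortex, and 0 in the other 2 curcumin comparisons and in the 4 interactions. Wnt7b, Wnt4 and Wnt16 kept their tissue call in all 16 such fits. Frzb lost it without the 6-week hippocampal control replicate 2 (adjusted p = 0.0508).

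Some uncalled curcumin effects changed sign when 1 array was left out. Over those fits Ctnnb1 (-0.25 to 0.11) and Wnt2 (-0.23 to 0.026) did so in cortex at 12 weeks, Axin2 (-0.047 to 0.19) and Lrp6 (-0.14 to 0.075) in hippocampus at 12 weeks, and Lrp6 (-0.16 to 0.033) and Wnt2 (-0.075 to 0.15) in hippocampus at 6 weeks.

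Same-numbered arrays of hippocampus and cortex deviated together with correlations of -0.154 to 0.162 over the 4 diet and duration pairs, of which 3 were over 0.1, and no source ties a number to the same rats in both tissues, so the numbers were not taken to pair the samples. With the replicate number as a block, the call for Dvl3 in hippocampus was lost (adjusted p = 0.0537, count 0), and the other members called kept theirs, while of the wider pathway list Celsr2 (cortex at 12 weeks of curcumin, and between tissues), Gpc3 (between tissues) and Prickle2 (duration in cortex) lost a call. With the pool of rats (diet, duration and number) as a replicate block, Fzd9 (0.15, adjusted p = 0.0399) and Sfrp4 (-0.19, 0.044) were gained between the tissues (count 7), and Daam1 (0.0588) and Celsr2 (0.121) were lost. A choice among several clusters per gene was not run, as each member had 1 cluster. With 2 arrays in a group, a single array can carry a result.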

Other observations

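Replicate arrays of a group differed in many ligands at once. In the 12-week curcumin hippocampus 14 of 17 ligands were higher on replicate 2 than on replicate 1, with a median difference of 0.29 against 0.03 for all clusters. In the 6-week curcumin cortex 1 of 17 was higher on replicate 2 (median -0.16), and in the 12-week control hippocampus 2 of 17 were (median -0.16). Single genes could go the other way. In the 12-week control hippocampus Sfrp2, a secreted inhibitor, had 6.46 on replicate 1 and 7.28 on replicate 2, and Wnt2 had 6.65 and 7.35.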
